A study of Mus musculus with 6 samples.

Results

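Conjugation and detoxification enzymes were examined in medullary thymic epithelial cells (mTECs), the stromal cells of the thymus that display antigens of peripheral organs to developing T cells. The genes were taken by symbol alone: glutathione S-transferases (Gst classes a, k, m, o, p and t), UDP-glucuronosyltransferases (Ugt), sulfotransferases (Sult), epoxide hydrolases (Ephx) and aldehyde dehydrogenases (Aldh). There were 83 such genes among the 20443 genes of the tables: 20 Gst, 21 Ugt, 18 Sult, 4 Ephx and 20 Aldh genes. RNA was sequenced from sorted mTECs of C57BL/6 mice at 4 weeks of age. The 3 mutant libraries (cKO_262, cKO_263 and cKO_265) came from Jmjd3fl/fl-Foxn1-cre mice, in which the Cre recombinase is driven by Foxn1, a transcription factor gene of the thymic epithelium as a whole and not of mTECs alone. The 3 control libraries (Con_253, Con_261 and Con_264) came from Jmjd3fl/fl mice, which carry the same floxed alleles, so that the controls had no Cre and the effect of Cre alone was not measured. Jmjd3 is a histone demethylase with the gene symbol Kdm6b, and the study's title names its question as whether Jmjd3 is needed for the expression of tissue-restricted antigens in mTECs. The labels number the mice but name no litters, so the spread between libraries is taken as that between mice.

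Detoxification in liver, gut and kidney works in steps. Oxidising enzymes first expose a reactive group, and the reactive epoxides and aldehydes that can arise are cleared by epoxide hydrolases, which add water, and by aldehyde dehydrogenases, which oxidise them to acids. Conjugating enzymes then attach a polar group that lets the product be excreted: glutathione through the Gst enzymes, glucuronic acid from UDP-glucuronic acid through the Ugt enzymes, or sulfate from the donor PAPS through the Sult enzymes. Several of these genes are known mainly from liver or gut, and mTECs are known to transcribe many genes of such organs at low levels, while other members act in the ordinary metabolism of most cells.

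All values are FPKM (fragments mapped to a gene, divided by its transcript's length in kilobases and scaled to the fragments of the library), which the authors deposited without counts, so the sequencing depth and the counting error of each value are unknown. The summed FPKM of a library ran from 583466 to 641685 in cKO and from 461791 to 543802 in Con. Kdm6b itself was at 11.1, 11.6 and 8.67 FPKM in cKO, against 18.1, 17.1 and 9.998 FPKM in Con (libraries of a group in order of mouse number, here and in all that follows), and the groups overlapped. Its log2 fold change was -0.45 with a standard error (SE) of 0.23 and an adjusted p of 0.418 (limma), and the floxed part of the gene is not given in the sources used here, so this value does not measure the deletion. Of the mTEC markers, Epcam was at 813, 839 and 945 FPKM in cKO and at 751, 887 and 778 FPKM in Con, and the 10 listed markers summed to between 6672 and 8236 FPKM in cKO and between 6601 and 7726 FPKM in Con. Most of that sum was H2-Aa, with means of 4057 FPKM in cKO and 4171 FPKM in Con. By gene, 6 of the 10 had higher and 4 lower values in cKO, with log2 fold changes from -0.68 to 0.40. The labels give no sex. The Y-linked gene Eif2s3y was at 7.88 FPKM in Con_253 and at no more than 0.0409 FPKM in the other libraries, and values without Con_253 are given where they matter.

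The 4 members with the smallest adjusted p were picked by that value from these same data, and none was under 0.05 (limma). Their promoter sequences are shown first. Each is RefSeq's window of 250 bases before and 50 bases after the gene's start (build GRCm38.p6, the assembly that mm10 also names), on the gene's own strand and 5′ to 3′. A pair of short motifs was searched on both strands in these windows. They were TGACNNNGC, the core of the antioxidant response element that the factor Nrf2 binds, and GCGTG, the core of the element that the aryl hydrocarbon receptor binds; a match of one can share bases with a match of the other. Capitals mark a motif match, and the only one is GCGTG in the window of Gsta2, starting at position -7 from the start site. For Ephx1 the window lies wholly outside the deposited locus, whose upper end is 181017495. The GENCODE M21 annotation puts the gene's upper end at 181020904, and other starts of Ephx1 were not searched.
Ephx1, microsomal epoxide hydrolase, chr1:181017520-181017819, minus strand: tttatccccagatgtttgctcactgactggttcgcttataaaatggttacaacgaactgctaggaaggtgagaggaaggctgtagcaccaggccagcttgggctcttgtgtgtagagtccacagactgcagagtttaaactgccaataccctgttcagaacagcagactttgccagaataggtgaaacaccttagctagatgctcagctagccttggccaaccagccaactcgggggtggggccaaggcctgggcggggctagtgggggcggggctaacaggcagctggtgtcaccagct
Gsta2, an alpha class glutathione transferase, chr9:78347096-78347395, minus strand: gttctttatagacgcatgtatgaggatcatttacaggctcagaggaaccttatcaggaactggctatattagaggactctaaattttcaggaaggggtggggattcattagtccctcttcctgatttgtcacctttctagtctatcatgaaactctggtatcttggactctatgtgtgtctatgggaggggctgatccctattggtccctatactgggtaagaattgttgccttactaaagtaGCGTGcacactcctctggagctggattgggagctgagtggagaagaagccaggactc
Ugt1a6a, a glucuronosyltransferase for phenols, chr1:88134559-88134858, plus strand: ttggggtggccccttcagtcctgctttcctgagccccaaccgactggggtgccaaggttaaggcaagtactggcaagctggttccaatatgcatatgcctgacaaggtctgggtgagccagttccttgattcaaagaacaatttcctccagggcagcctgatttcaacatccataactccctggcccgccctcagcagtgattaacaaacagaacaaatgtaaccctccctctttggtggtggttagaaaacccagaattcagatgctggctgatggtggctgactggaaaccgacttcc
Ugt1a1, the glucuronosyltransferase for bilirubin, chr1:88211709-88212008, plus strand: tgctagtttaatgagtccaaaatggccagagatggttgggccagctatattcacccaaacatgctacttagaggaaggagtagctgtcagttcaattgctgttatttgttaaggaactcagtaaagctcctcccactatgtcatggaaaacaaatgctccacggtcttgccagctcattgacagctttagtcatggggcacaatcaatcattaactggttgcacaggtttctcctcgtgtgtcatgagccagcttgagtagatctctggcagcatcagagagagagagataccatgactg
RefSeq windows were found for 68 of the 83 members, 80 windows in all. TGACNNNGC was present in 5 of the 80 windows (6.25%), against 12.4% of all 32851 windows in the table, and the 5 belonged to Gsta3, Gstm5, Gstm7, Aldh1a2 and Aldh9a1. GCGTG was present in 19 of the 80 windows (23.8%), against 32.4% of all windows. Motifs more than 250 bases before a start were not searched, so these shares do not cover elements further upstream. The member windows held a median of 4 CpG dinucleotides, against 7 over all windows.

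Many members are close copies of each other, which bears on how far single values can be trusted. Of the 83 members, 32 shared no window of 50 bases with another gene in the GENCODE M21 transcripts, 26 shared more than 10% of their windows and 13 more than 50%. Ephx1 shared 1.70% of its windows, Gsta2 49.8%, Ugt1a6a 52.1% and Ugt1a1 58.2%. The coding sequences of Gsta2 and Gsta1 were identical at 97.6% of aligned positions. The stretch of 90 coding bases in which they differ most (coding positions 419 to 508, GRCm38) shows how few bases tell their reads apart; capitals mark the 5 differing bases.
Gsta2, chr9:78332125-78332214, minus strand: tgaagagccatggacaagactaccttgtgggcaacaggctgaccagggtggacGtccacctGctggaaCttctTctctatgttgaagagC
Gsta1, chr9:78241531-78241620, plus strand: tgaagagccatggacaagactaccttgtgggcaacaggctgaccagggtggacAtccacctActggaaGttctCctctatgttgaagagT
Ugt1a6a and Ugt1a6b were identical at 98.4% of coding positions, with 774 identical bases in a row. The Ugt1a genes have first exons of their own and share the remaining exons. The shared exons alone do not give 98.4%. Ugt1a1 and Ugt1a6a had 738 identical bases in a row but were identical at 76.4% of aligned positions. The stretch of 90 coding bases in which Ugt1a6a and Ugt1a6b differ most often (coding positions 271 to 360, GRCm38) holds 13 differing bases, in capitals as above.
Ugt1a6a, chr1:88138744-88138833, plus strand: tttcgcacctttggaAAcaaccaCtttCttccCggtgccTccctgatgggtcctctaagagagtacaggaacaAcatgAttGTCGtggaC
Ugt1a6b, chr1:88107212-88107301, plus strand: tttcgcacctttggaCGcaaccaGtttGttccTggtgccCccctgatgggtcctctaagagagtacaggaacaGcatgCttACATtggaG
In this annotation the longest coding transcripts of Ugt1a6a and Ugt1a7c were the same sequence. Other pairs above 90% were Gstp1 and Gstp2 (98.1%), the Ugt2b5, Ugt2b37 and Ugt2b38 genes (94.1% to 97.04%), Ugt1a9 and Ugt1a10 (95.3%), 4 of the Sult2a genes (93.5% to 94.9%), Ugt3a1 and Ugt3a2 (93.2%), and Aldh1a1 and Aldh1a7 (91.6%). How shared reads were assigned among such copies is not given in the sources used here, and values of these genes are uncertain.

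Levels differed widely between families, in both groups. FPKM is a value per transcript length, so levels are set side by side between genes here. Amplification of the cDNA and reads shared between copies can still shift them. Over the 6 libraries, 17 members averaged at least 20 FPKM, 15 averaged 5 to 20, 30 averaged 0.5 to 5, and 21 averaged less than 0.5. All 20 Gst, 4 Ephx and 20 Aldh genes were above 0.5 FPKM, whereas 13 of the 21 Ugt genes and 8 of the 18 Sult genes were below it, and no Ugt gene reached 5 FPKM. The 21 genes below 0.5 FPKM were not tested, which left 62 tested members.

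**Figure D1:**
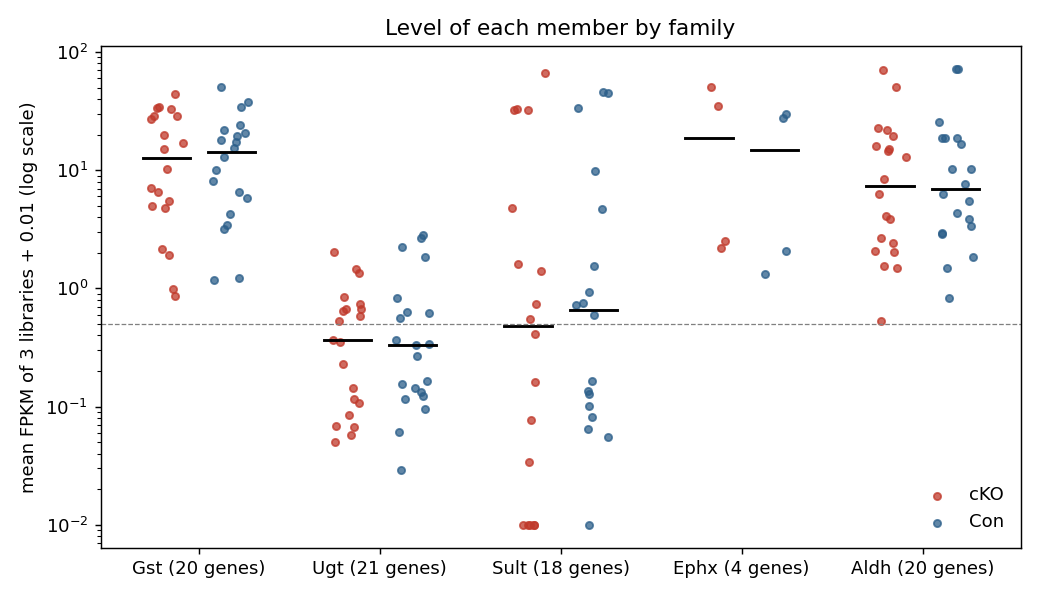
Mean FPKM of each member over the 3 cKO libraries and over the 3 Con libraries (points, log scale after adding 0.01), by family, with the median of each family as a bar and the 0.5 FPKM minimum as a dashed line. The Gst and Aldh genes sit at or above the line in both groups, and 13 of the 21 Ugt genes and 8 of the 18 Sult genes average below it.

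No member passed the test between cKO and Con. Of all 15720 tested genes, 12 (0.0763%) passed at an adjusted p under 0.05 with limma, and 0 of the 62 members did; with library weights, 3025 genes passed, among them 10 members, in a fit that rests mostly on 1 library a group. At an unadjusted p under 0.05 there were 10 members (16.1%), against 14.6% of all tested genes. Of these, 3 had higher values in cKO (Ephx1, Gsta2 and Aldh7a1; 4.84% of members, against 6.81% of all tested genes) and 7 had lower values (Ugt1a6a, Ugt1a1, Gstk1, Aldh6a1, Aldh1b1, Aldh2 and Aldh1a2; 11.3%, against 7.82%). The 3 cKO libraries did not overlap with the 3 Con libraries in 14 members (22.6%), against 21.5% of all tested genes, with 4 members higher in cKO (6.45%, against 9.59%) and 10 lower (16.1%, against 11.9%). These shares lie near the background. In value alone, 39 of the 62 members were lower in cKO (62.9%, against 54.7% of all tested genes), and their median log2 fold change was -0.11, against -0.035 over all tested genes. Low genes had lower values in cKO more often, members and others. Of the 30 tested members under 5 FPKM, 22 were lower in cKO (73.3%, against 65.0% of all tested genes of that level), and of the 32 members of at least 5 FPKM 17 were (53.1%, against 46.8%). These are bulk samples, in which fewer cells of a type and less RNA per cell cannot be told apart.

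**Figure D2:**
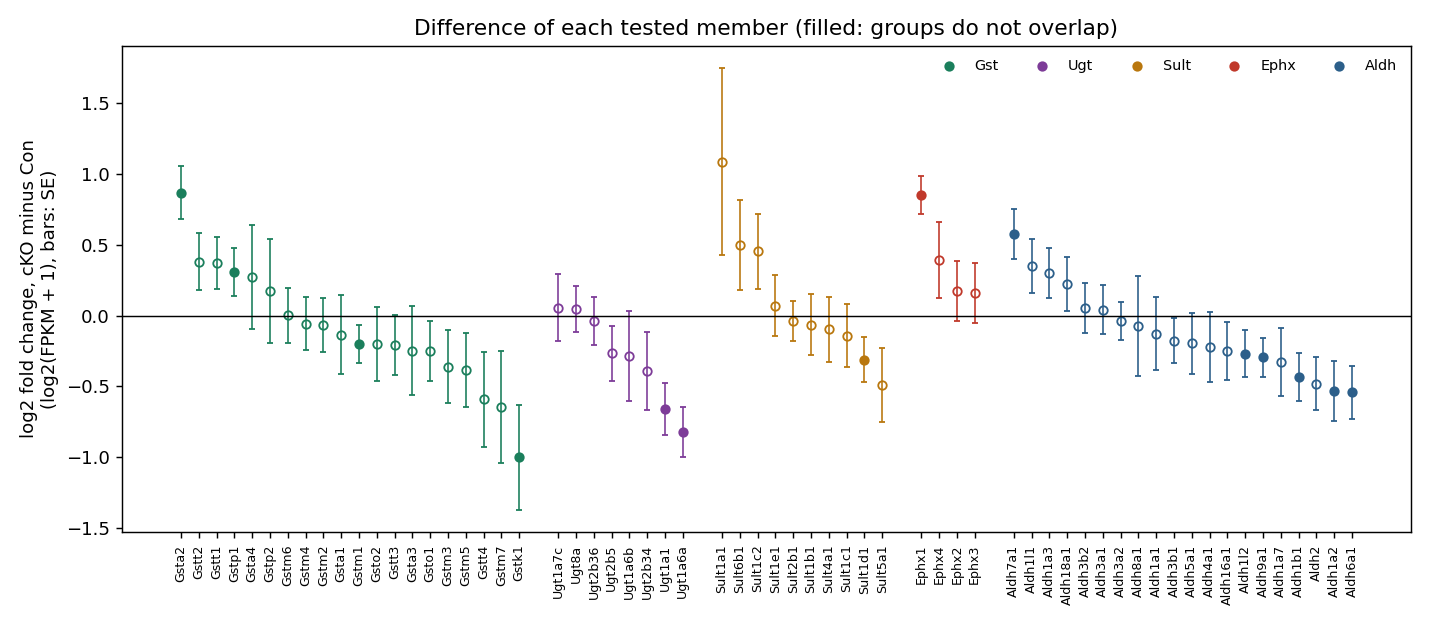
Log2 fold change, cKO minus Con, on the log2(FPKM + 1) scale for the 62 tested members, ordered within each family, with bars of 1 SE; filled points are the 14 members whose cKO and Con libraries did not overlap. All 4 Ephx genes lie above 0, the 20 Gst and 20 Aldh genes lie on both sides, and Sult1a1 has the longest bar (SE 0.66).

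The epoxide hydrolases, which open reactive epoxides by adding water, held the member with the smallest p. Ephx1, the microsomal form that acts on xenobiotic epoxides, was at 49.8, 47.9 and 55.0 FPKM in cKO, against 30.1, 27.4 and 25.7 FPKM in Con. Every cKO library was above every Con library, and the means were 50.9 ± 3.68 FPKM in cKO and 27.8 ± 2.23 FPKM in Con (SD, n = 3 each). The log2 fold change was 0.85 (SE 0.14) with an adjusted p of 0.0889 (limma), short of the threshold. It stayed between 0.80 and 0.91 when each library was left out in turn, with adjusted p between 0.0698 and 0.432, and was 0.86 without both Con_253 and cKO_265. The gene lies at chr1:180989556-181017495 (mm10, the files' locus). Ephx2, the soluble form that hydrolyses epoxides of fatty acids, was at 28.1, 28.1 and 47.5 FPKM in cKO, against 27.9, 32.4 and 28.7 FPKM in Con. Its higher mean in cKO rested on cKO_265: the log2 fold change was 0.17 (SE 0.21, adjusted p 0.752, limma) and -0.072 without that library. Ephx2 has 4 rows in the tables, and 1 of them held 16.7 FPKM in Con_261 and was listed at 0 in the other libraries. Ephx3, a form studied mostly in skin, was at 3.45, 2.35 and 1.72 FPKM in cKO and at 2.18, 2.07 and 1.99 FPKM in Con. Ephx4, whose substrate is not established, was at 1.19, 3.52 and 1.81 FPKM in cKO and at 1.16, 1.59 and 1.19 FPKM in Con. Both overlapped between groups, with log2 fold changes of 0.16 (SE 0.21) for Ephx3 and 0.39 (SE 0.27) for Ephx4. Without cKO_262 the value of Ephx3 was -0.028, and without cKO_263 that of Ephx4 was 0.11. The family's summed FPKM was 82.6, 81.9 and 106.1 in cKO, against 61.4, 63.5 and 57.5 in Con, without overlap, and Ephx1 alone gave 52.1% of the sum over all libraries.

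Glutathione transferases were the most abundant family in sum, with 326.1 ± 35.4 FPKM in cKO and 316.9 ± 21.4 FPKM in Con (SD, n = 3 each). The sums overlapped, but as a share of the library's summed FPKM the family was lower in every cKO library. That share was 0.0483% to 0.0578% in cKO and 0.0613% to 0.0647% in Con. Of the 20 genes, 7 had higher and 13 lower values in cKO, with a median log2 fold change of -0.17 and none past the threshold (smallest adjusted p 0.125, limma). The classes did not move together. Among the alpha class genes, which conjugate electrophiles in liver and gut, Gsta2 was at 30.5, 28.9 and 44.1 FPKM in cKO, against 17.8, 19.8 and 16.8 FPKM in Con. Each cKO library was above all of the Con libraries, and cKO_265 was the highest. The means were 34.5 ± 8.37 FPKM in cKO and 18.1 ± 1.53 FPKM in Con (SD, n = 3 each), with a log2 fold change of 0.87 (SE 0.18, adjusted p 0.125, limma), or 0.68 without cKO_265. Its near copy Gsta1 was at 1.25, 1.22 and 0.498 FPKM in cKO and at 0.555, 2.02 and 1.10 FPKM in Con, so that most FPKM of the pair were assigned to Gsta2 in each library. Gsta2 lies at chr9:78331020-78347145 (mm10), in a cluster with Gsta1 and Gsta4. Gsta4, which acts on aldehydes of lipid peroxidation, was at 15.8, 54.1 and 28.9 FPKM in cKO and at 25.2, 21.3 and 25.8 FPKM in Con. Its cKO libraries lay on both sides of the Con libraries, and its log2 fold change was 0.27 (SE 0.37, adjusted p 0.774, limma) and -0.16 without cKO_263. Gsta3 was at 3.60, 7.79 and 9.79 FPKM in cKO and at 6.07, 9.04 and 9.27 FPKM in Con, which overlap.

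Gstk1, the kappa class enzyme of mitochondria and peroxisomes, had the lowest log2 fold change of the tested members with the added 1; with 0.1 added instead it was -1.14, and that of Ugt1a6a was lower, at -1.33. It was at 8.16, 8.96 and 2.60 FPKM in cKO, against 13.7, 9.97 and 15.3 FPKM in Con. The groups were apart, but by a small gap between cKO_263 and Con_261, and cKO_265 was far below its group. The means were 6.57 ± 3.46 FPKM in cKO and 13.01 ± 2.74 FPKM in Con (SD, n = 3 each), with a log2 fold change of -1.002 (SE 0.37, adjusted p 0.266, limma), or -0.53 without cKO_265. The gene lies at chr6:42245935-42250441 (mm10). The 7 mu class genes, which form a cluster at chr3:107877230-108044859, summed to 97.6, 106.0 and 92.3 FPKM in cKO, against 122.9, 112.2 and 104.5 FPKM in Con, and 6 of the 7 had lower values in cKO. Gstm1, the most abundant Gst gene with 14.7% of the family's sum, was at 43.7, 45.5 and 42.6 FPKM in cKO, against 55.7, 50.2 and 46.1 FPKM in Con. The groups did not overlap, by a gap of less than 1 FPKM, and the log2 fold change was -0.20 (SE 0.13, adjusted p 0.531, limma), or -0.13 without Con_253. In the theta class, at chr10:75774122-75834881, Gstt1 was at 31.4, 31.2 and 23.1 FPKM in cKO and at 26.3, 19.6 and 19.7 FPKM in Con. Gstt2 was at 26.8, 30.4 and 23.5 FPKM in cKO and at 25.04, 22.1 and 15.1 FPKM in Con. Gstt3 was at 39.0, 39.1 and 22.9 FPKM in cKO and at 37.3, 39.3 and 37.2 FPKM in Con. All of these overlapped, with log2 fold changes of 0.37 (SE 0.18) for Gstt1, 0.38 (SE 0.20) for Gstt2 and -0.21 (SE 0.21) for Gstt3, and that of Gstt3 was 0.041 without cKO_265. Gstt2 was 0.18 without Con_264, and without both Con_253 and cKO_265 Gstt1 was 0.65 and Gstt2 0.62. Gstp1, the pi class enzyme of many epithelia, was at 17.4, 17.5 and 24.3 FPKM in cKO and at 14.7, 16.4 and 15.5 FPKM in Con, which do not overlap, with a log2 fold change of 0.31 (SE 0.17, adjusted p 0.444, limma), or 0.16 without cKO_265, and 0.12 when Con_253 was left out as well. Gsto1, an omega class enzyme that also reduces dehydroascorbate, was at 22.2, 36.4 and 28.4 FPKM in cKO and at 42.2, 29.4 and 31.4 FPKM in Con, which overlap (log2 fold change -0.25, SE 0.21; -0.095 without Con_253, -0.077 without cKO_262 and -0.42 without cKO_263).

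**Figure D3:**
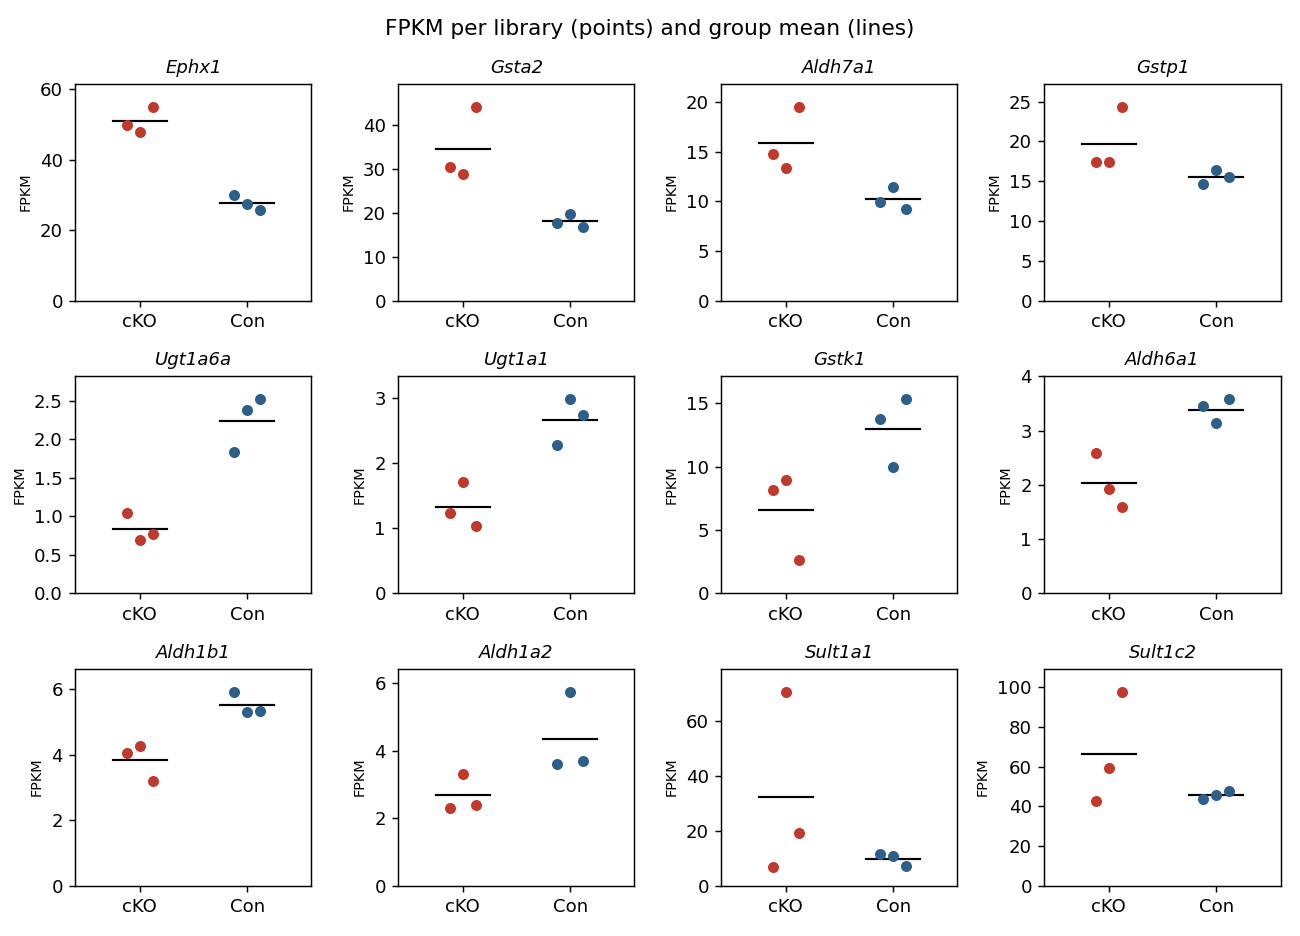
FPKM of 12 members in each library (points; order within a group cKO_262, cKO_263, cKO_265 and Con_253, Con_261, Con_264) with the group mean as a line and axes from 0. Ephx1, Gsta2, Aldh7a1 and Gstp1 lie higher in each cKO library than in any Con library, Ugt1a6a, Ugt1a1, Gstk1, Aldh6a1, Aldh1b1 and Aldh1a2 lie lower, and Sult1a1 and Sult1c2 overlap.

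Glucuronosyltransferase values were low. The 21 genes summed to 9.15, 9.09 and 14.6 FPKM in cKO, against 12.01, 14.8 and 16.4 FPKM in Con. Of the 8 tested genes, 2 had higher and 6 lower values in cKO (median log2 fold change -0.27, smallest adjusted p 0.125, limma). Ugt1a6a, which glucuronidates phenols, was at 1.04, 0.691 and 0.770 FPKM in cKO, against 1.84, 2.38 and 2.52 FPKM in Con. Its means were 0.834 ± 0.184 FPKM in cKO and 2.24 ± 0.359 FPKM in Con (SD, n = 3 each), with a log2 fold change of -0.82 (SE 0.18, adjusted p 0.125, limma). Ugt1a1, which conjugates bilirubin, was at 1.24, 1.72 and 1.04 FPKM in cKO, against 2.28, 2.98 and 2.75 FPKM in Con. Its means were 1.33 ± 0.348 FPKM in cKO and 2.67 ± 0.359 FPKM in Con (SD, n = 3 each), with a log2 fold change of -0.66 (SE 0.19, adjusted p 0.183, limma). All cKO libraries were below all Con libraries for both genes. At these levels the added 1 makes the log2 fold changes smaller than the ratios of the means. Ugt1a6b, which shares most of its sequence with Ugt1a6a, was at 2.17, 0.387 and 1.80 FPKM in cKO and at 1.70, 1.36 and 2.48 FPKM in Con, which overlap, with a log2 fold change of -0.28 (SE 0.32, adjusted p 0.730, limma) and 0.085 without cKO_263. The tables give all 8 Ugt1a genes 1 common locus, chr1:88055411-88220002, and since reads of the common exons fit any of them, their sum is less open to the way reads were divided. It was 5.46, 4.19 and 5.26 FPKM in cKO, against 7.06, 8.14 and 8.96 FPKM in Con (4.97 ± 0.682 in cKO and 8.05 ± 0.953 in Con, SD, n = 3 each), again without overlap. Ugt2b34 was at 0.931, 2.26 and 2.84 FPKM in cKO and at 2.05, 3.21 and 3.25 FPKM in Con. Ugt2b5 was at 0.386, 0.305 and 0.878 FPKM in cKO and at 0.806, 0.680 and 0.952 FPKM in Con. Both Ugt2b genes, of a subfamily that acts on steroids and drugs, overlapped between groups. Ugt8a, which makes the galactolipids of myelin, was at 0.719, 0.574 and 0.677 FPKM in cKO and at 0.538, 0.519 and 0.771 FPKM in Con. Among the untested genes, Ugt2a3 was at 0.150, 0.262 and 1.49 FPKM in cKO and at 0.0376, 0.260 and 0.139 FPKM in Con, and Ugt3a1 at 0.284, 0.155 and 1.74 FPKM in cKO and at 0.178, 0.262 and 0.342 FPKM in Con. In both, cKO_265 was the only library above 1 FPKM.

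Sulfotransferase values were carried by a few genes, some of which varied widely between cKO libraries. The 18 genes summed to 173.9 ± 32.6 FPKM in cKO and 144.1 ± 13.3 FPKM in Con (SD, n = 3 each), and the 5 most abundant genes held 96.8% of the FPKM. Of the 10 tested genes, 4 had higher and 6 lower values in cKO (median log2 fold change -0.052), and 0 were at an unadjusted p under 0.05 (smallest adjusted p 0.409, limma). Sult1a1, the sulfotransferase of phenols, was at 6.79, 70.5 and 19.3 FPKM in cKO and at 11.6, 10.7 and 7.02 FPKM in Con. The cKO libraries lay from below all Con libraries to far above them, a 10.4-fold range within cKO. The log2 fold change of 1.09 (SE 0.66, adjusted p 0.490, limma) was the highest of the tested members, and was 0.25 without cKO_263 and 1.85 without cKO_262. Sult1c2 was at 42.7, 59.3 and 97.7 FPKM in cKO and at 43.5, 45.8 and 47.6 FPKM in Con, with cKO_265 the highest. Its log2 fold change was 0.45 (SE 0.26, adjusted p 0.470, limma), 0.14 without cKO_265 and 0.73 without cKO_262. Sult5a1 was at 44.3, 21.8 and 31.8 FPKM in cKO and at 44.8, 55.1 and 35.3 FPKM in Con, which overlap (log2 fold change -0.49, SE 0.26, adjusted p 0.434, limma; -0.24 without cKO_263). Sult2b1, which sulfates cholesterol in skin and other epithelia, varied little, at 34.1, 30.5 and 33.7 FPKM in cKO and 32.3, 38.0 and 31.0 FPKM in Con (log2 fold change -0.039, SE 0.14). Sult1e1, the estrogen sulfotransferase, was at 5.25, 4.59 and 4.62 FPKM in cKO and at 4.75, 3.21 and 5.98 FPKM in Con. Sult1d1, which acts on catecholamines in mice, was the only tested Sult gene whose groups did not overlap, at 0.457, 0.363 and 0.396 FPKM in cKO, against 0.610, 0.792 and 0.841 FPKM in Con (log2 fold change -0.31, SE 0.16, adjusted p 0.409, limma). The liver hydroxysteroid sulfotransferases of the Sult2a cluster (chr7:13623967-14492926) were at or near 0: Sult2a2 was listed at 0 in all 6 libraries, and the 7 genes summed to no more than 0.580 FPKM in any cKO library and 0.727 FPKM in any Con library.

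Aldehyde dehydrogenases oxidise aldehydes of metabolism, alcohol and vitamin A. The 20 genes summed to 289.4, 270.4 and 275.0 FPKM in cKO, against 323.4, 296.0 and 292.6 FPKM in Con, without overlap. The mean sums were 278.3 FPKM in cKO and 304.0 FPKM in Con. Most of that gap lay in Aldh2, whose groups overlap, with means of 50.7 FPKM in cKO and 72.2 FPKM in Con. In value, 6 genes were higher and 14 lower in cKO (median log2 fold change -0.19), with none past the threshold (smallest adjusted p 0.213, limma). The most abundant gene, Aldh3a2, the fatty aldehyde dehydrogenase with 24.3% of the family's sum, was at 70.1, 67.3 and 72.1 FPKM in cKO and at 68.1, 66.4 and 81.1 FPKM in Con. These overlap, and its log2 fold change of -0.036 (SE 0.14) was 0.045 after each library was centred on its median. Aldh2, the mitochondrial enzyme that clears acetaldehyde, was at 48.0, 56.9 and 47.1 FPKM in cKO and at 90.3, 70.0 and 56.2 FPKM in Con. Con_264 lay within the cKO range, and Con_253 was the highest; the log2 fold change was -0.48 (SE 0.19, adjusted p 0.290, limma) and -0.31 without Con_253. Aldh7a1, which acts in lysine breakdown, was the only Aldh gene with all cKO libraries higher, at 14.8, 13.4 and 19.5 FPKM in cKO, against 9.98, 11.4 and 9.28 FPKM in Con. Its means were 15.9 ± 3.22 FPKM in cKO and 10.2 ± 1.10 FPKM in Con (SD, n = 3 each), with a log2 fold change of 0.58 (SE 0.18, adjusted p 0.213, limma).

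Lower values without overlap were found in 5 of the 20 Aldh genes (25%, against 11.9% of all tested genes). All of them but Aldh9a1 averaged less than 5 FPKM. At that level 14.9% of all tested genes were lower without overlap, and 9.62% were at 5 FPKM or more. Aldh6a1, of valine breakdown, was at 2.59, 1.92 and 1.59 FPKM in cKO, against 3.46, 3.13 and 3.57 FPKM in Con (log2 fold change -0.54, SE 0.18, adjusted p 0.239, limma). Aldh1b1, a mitochondrial relative of Aldh2, was at 4.05, 4.27 and 3.20 FPKM in cKO, against 5.91, 5.30 and 5.32 FPKM in Con (log2 fold change -0.43, SE 0.17, adjusted p 0.286, limma). Aldh9a1, of carnitine synthesis, was at 15.8, 15.9 and 13.7 FPKM in cKO, against 18.4, 18.6 and 19.3 FPKM in Con (log2 fold change -0.29, SE 0.14, adjusted p 0.371, limma). The remaining genes of this kind were Aldh1a2 and the mitochondrial folate enzyme Aldh1l2, which was at 0.565, 0.391 and 0.592 FPKM in cKO, against 0.688, 0.827 and 0.960 FPKM in Con (log2 fold change -0.27, SE 0.16, adjusted p 0.494, limma). Aldh1a1, Aldh1a2 and Aldh1a3 make retinoic acid from retinal. Aldh1a2 was at 2.31, 3.31 and 2.40 FPKM in cKO, against 3.61, 5.74 and 3.71 FPKM in Con (log2 fold change -0.53, SE 0.21, adjusted p 0.299, limma; -0.35 without Con_261). Aldh1a3 lay the other way, at 14.4, 12.9 and 11.3 FPKM in cKO and at 8.83, 9.60 and 12.5 FPKM in Con, which overlap. Aldh1a1 was at 1.33, 1.69 and 1.41 FPKM in cKO and at 1.28, 1.13 and 3.05 FPKM in Con, also overlapping. The 4 Aldh1a genes together, with Aldh1a7 as the fourth, came to 19.7, 19.9 and 17.6 FPKM in cKO and 16.5, 18.3 and 23.3 FPKM in Con, which overlap. Aldh1a3 gave 60.2% of the sum over all libraries, so the sum says little of Aldh1a2. Aldh4a1, of proline breakdown, was at 30.5, 17.9 and 17.6 FPKM in cKO and at 30.6, 26.5 and 19.2 FPKM in Con. Aldh18a1, of proline synthesis, was at 19.9, 18.6 and 29.4 FPKM in cKO and at 20.7, 17.6 and 18.3 FPKM in Con. Both overlapped, with log2 fold changes of -0.22 (SE 0.25) for Aldh4a1 and 0.22 (SE 0.19) for Aldh18a1. Single libraries set the size of both: Aldh4a1 ran from -0.47 without cKO_262 to -0.079 without Con_253, and Aldh18a1 was 0.027 without cKO_265.

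**Figure D4:**
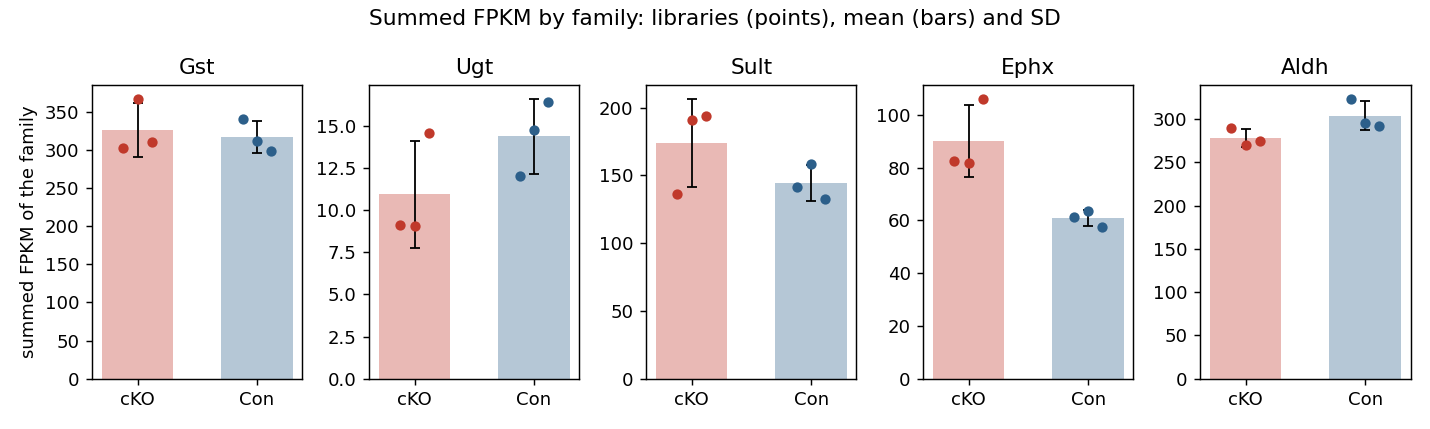
Summed FPKM of each family in each library (points), with the group mean (bars, from 0) and SD (whiskers, n = 3 each) and a separate axis per family. The Ephx sums lie higher in every cKO library than in any Con library, the Aldh sums lie lower, and the Gst, Ugt and Sult sums overlap.

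All members together summed to 879.3 ± 53.0 FPKM in cKO and 840.1 ± 40.4 FPKM in Con (SD, n = 3 each), which overlap. As a share of the library's summed FPKM they made up 0.140% to 0.145% in cKO and 0.162% to 0.173% in Con, without overlap. The total itself was higher in each cKO library than in any Con library, so the share and the FPKM do not run the same way. By family, the Gst and Aldh shares were lower in cKO without overlap (Aldh 0.0426% to 0.0496% in cKO, 0.0583% to 0.0634% in Con). The Ephx share was higher (0.0129% to 0.0165% in cKO, 0.0113% to 0.0125% in Con), and the Ugt and Sult shares overlapped. By position, 56 members fell into 12 clusters of genes less than 500 kb apart. In 8 of the 10 clusters with at least 2 tested members, neighbours had values on both sides of 0. The cluster with the most members, at chr5:86889770-87591611, holds 13 Ugt2 and Sult1 genes, of which 6 were tested, 1 with a higher and 5 with lower values in cKO.

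Genes that supply or steer these enzymes gave 0 calls in 7 lists. Of 28 tested genes of glutathione supply and other glutathione enzymes, 3 were higher and 7 lower in cKO at an unadjusted p under 0.05, or 10.7% and 25% of the list, against 6.81% and 7.82% of all tested genes, to which the shares of the other lists also compare (median log2 fold change -0.12). The list also takes in genes of leukotriene and prostaglandin synthesis, so its shares do not stand for glutathione supply alone. The smallest p values there belonged to Alox5ap, which serves leukotriene synthesis, at 12.7 ± 6.86 FPKM in cKO and 39.8 ± 7.43 FPKM in Con (log2 fold change -1.72, adjusted p 0.132, limma), and to the secreted peroxidase Gpx3, at 109.2 ± 45.8 FPKM in cKO and 210.9 ± 24.5 FPKM in Con (log2 fold change -1.01, adjusted p 0.164, limma; SD, n = 3 each). Of 12 tested genes for the cofactors of sulfation and glucuronidation, 1 (8.33%) was higher at that p, the glucuronidase gene Gusb, at 218.4 ± 10.2 FPKM in cKO and 167.3 ± 11.9 FPKM in Con (log2 fold change 0.38, adjusted p 0.233, limma; SD, n = 3 each), and 0 were lower; Bpnt1, which clears the spent sulfate donor, had a log2 fold change of -0.45 (adjusted p 0.343, limma). Of 26 other conjugating and reducing enzymes, 0 were higher and 2 (7.69%) lower: the carboxylesterase Ces1d (log2 fold change -0.59, adjusted p 0.173, limma) and the carbonyl reductase Cbr2 (-0.64, adjusted p 0.213, limma). Of 18 regulators of detoxification genes, 1 (5.56%) was higher, the bile acid receptor Nr1h4 (0.67, adjusted p 0.285, limma), and 2 (11.1%) were lower, among them Mafk, a partner of Nrf2 (-0.49, adjusted p 0.296, limma). Of 17 other Nrf2 targets, 1 (5.88%) was higher, the sulfiredoxin gene Srxn1 (0.42, adjusted p 0.223, limma), and 2 (11.8%) were lower, among them the heme oxygenase gene Hmox1 (-0.49, adjusted p 0.223, limma) (the list's median was 0.015 on the log2 scale). The lists share some genes, and the other lower Nrf2 target was also counted among the lower genes of the glutathione list. Of 24 retinoid pathway genes, 0 were at an unadjusted p under 0.05; the smallest p values were those of the retinal reductase Dhrs3 (-0.45, adjusted p 0.359, limma) and the retinol carrier Rbp4 (-0.995, adjusted p 0.360, limma). Of 5 alcohol dehydrogenases, 0 were higher and 1 (20%) was lower, Adh1, which oxidises ethanol and retinol, at 23.6 ± 6.23 FPKM in cKO and 35.4 ± 7.84 FPKM in Con (SD, n = 3 each; -0.57, adjusted p 0.289, limma), followed by Adh6a (-0.74, adjusted p 0.467, limma).

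Markers of tuft-like cells, which are themselves a kind of mTEC, and of some other cells that the sort could hold differed between the groups beside these values. Of 11 tuft-like markers, 10 were lower in cKO at an unadjusted p under 0.05 (90.9%, against 7.82% of all tested genes) and 3 of them (Avil, Plcb2 and Rgs13) fell past the threshold, with sums of 114.7 to 203.2 FPKM in cKO and 189.2 to 249.2 FPKM in Con; the exception, Gng13, was at 62.8, 141.6 and 69.1 FPKM in cKO and at 79.9, 50.3 and 54.9 FPKM in Con. Of 9 tested thymocyte markers, 5 were lower at that p (55.6%; sums over the list of 30.6 to 40.0 FPKM in cKO and 43.7 to 71.5 FPKM in Con). The macrophage and dendritic markers summed to 289.2 to 314.3 FPKM in cKO and 354.5 to 402.3 FPKM in Con. Most of that sum was Lyz2, at 261.3 ± 17.5 FPKM in cKO and 344.6 ± 19.1 FPKM in Con, whereas Aif1 of the same list was at 13.7 ± 3.16 FPKM in cKO and 4.29 ± 0.440 FPKM in Con (SD, n = 3 each; log2 fold change 1.46, adjusted p 0.0555, limma). At an unadjusted p under 0.05, 1 of the 6 tested macrophage and dendritic markers was higher and 1 lower. The endothelial markers summed to 7.53 to 9.60 FPKM in cKO and 10.2 to 11.1 FPKM in Con. The sums of cortical epithelial markers (572.7 to 791.7 FPKM in cKO and 621.3 to 675.7 FPKM in Con), B cell markers (40.8 to 56.0 in cKO and 38.8 to 51.7 in Con), fibroblast markers (29.7 to 35.9 in cKO and 32.8 to 40.5 in Con) and erythroid markers (6.60 to 8.38 in cKO and 7.18 to 8.997 in Con) overlapped. None of the markers found in the tables was at 0 in all 6 libraries. The part of these cells in the lower values of members was not tested.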

How the data were processed

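RNA of sorted mTECs was sequenced in 3 cKO and 3 Con libraries. Per the labels' protocols, the cDNA was amplified with a single-cell whole-transcriptome kit, which can favour some transcripts over others. The authors deposited 1 table of FPKM per library, made with Bowtie2 2.2.5 and Cufflinks on mm10, per the submitters' processing notes. The annotation, the Cufflinks version and any scaling between libraries are not given in the sources used here. Rows of a symbol (25025 rows, 20468 symbols) were summed, 44 rows whose symbols had become dates were dropped, and 1 base was added to the starts: 29 of 83 member starts then equalled GENCODE M21, against 6 as deposited.

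All genes averaging 0.5 FPKM or more were fitted as log2(FPKM + 1) by limma 3.58.1 (R 4.3.3; eBayes with a trend, 2-sided, Benjamini-Hochberg adjustment over 15720 genes, threshold 0.05); the procedure was tested on simulated data. Without counts, the precision rests on 3 libraries a group. Fold changes are cKO minus Con on that scale, which understates changes of low genes. Members and lists were chosen with earlier results of these data known. The text names Kdm6b, all Ephx genes, in each other family the 4 highest and the 4 with the smallest p, members whose groups do not overlap, and in each list the 2 with the smallest p; other members (Gsta1, Gsta3, Ugt8a, Ugt2a3, Ugt3a1, Sult1e1, Aldh1a1, Aldh1a3), Eif2s3y, Gng13, Aif1 and the called tuft-like markers were added after their values were seen. The planned protein identities were replaced by identities of coding sequences. Alternatives were a pseudocount of 0.1, no minimum, a minimum of 5 FPKM, quantile normalization, median centring, library weights, and leaving out each library or both Con_253 and cKO_265, which earlier results had set apart.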

Additional observations from a re-analysis of the deposited data

How the results depend on the processing

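The number of genes changed, 12 in all, was 4 with no minimum level, 3025 with library weights, and 2 to 23 when each library was left out (23 without cKO_262, 19 without cKO_265 and 2 without any 1 of the Con libraries). Members changed were 0, also without each library in turn (0 to 0), and 10 with library weights. Those weights were 8.72 for Con_261, 2.01 for cKO_263 and 0.263 to 0.823 for the others, so that fit rests mostly on 1 library a group. The 10 members at an unadjusted p under 0.05 became 5 with a minimum of 5 FPKM, 27 with library weights and 7 to 15 without single libraries (15 without cKO_262). The 14 members without overlap became 7 with a minimum of 5 FPKM, 32 without both Con_253 and cKO_265, and 15 to 23 without single libraries (23 without cKO_262, 22 without Con_264); smaller groups overlap less often by construction.

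Family medians moved as follows. The Gst median of -0.17 was -0.066 with a minimum of 5 FPKM, -0.063 with quantile normalization, -0.073 with library weights and -0.15 to -0.11 without single libraries. The Ugt median of -0.27 was -0.57 with a pseudocount of 0.1, -0.043 with no minimum and -0.42 to -0.056 without single libraries (-0.056 without cKO_263); a minimum of 5 FPKM left no Ugt gene. The Sult median of -0.052 was 0.21 with a minimum of 5 FPKM, 0.045 with quantile normalization and -0.062 to 0.014 without single libraries. The Ephx median of 0.28 was 0.51 with a minimum of 5 FPKM, 0.39 with quantile normalization and 0.24 to 0.46 without single libraries (0.46 without cKO_262). The Aldh median of -0.19 was -0.24 with a pseudocount of 0.1, -0.036 with a minimum of 5 FPKM, -0.10 with median centring, -0.0098 with library weights, -0.090 without both Con_253 and cKO_265, and -0.22 to -0.10 without single libraries (-0.10 without cKO_265). The causes were not tested.

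Of 33 members followed one by one, 24 kept their direction in all settings that gave a value. The log2 fold changes of the other 9 changed sign as follows: Aldh3a2 with median centring (0.045) and library weights (0.022); Aldh4a1 without both Con_253 and cKO_265 (0.051); Ephx2 with library weights (-0.10) and without both (-0.11); Gsto1 with library weights (0.088); Gstt3 without both (0.029); and Sult2b1 with median centring (0.042). Without single libraries, Aldh3a2 ran from -0.089 to 0.053 (above 0 without Con_264), Ephx2 from -0.072 (without cKO_265) to 0.30, Ephx3 from -0.028 (without cKO_262) to 0.33, Gsta4 from -0.16 (without cKO_263) to 0.70, Gstt3 from -0.33 to 0.041 (without cKO_265), Sult2b1 from -0.096 to 0.047 (above 0 without Con_261 or cKO_263) and Ugt1a6b from -0.51 to 0.085 (without cKO_263). No paired analysis was possible because the cKO and Con libraries share no replicate numbers. Depth is unknown, so low values, above all those of Ugt and Sult genes under 0.5 FPKM, have a counting error that cannot be given.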
